A study of Homo sapiens with 8 samples.

Results

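HT29 cells grown as spheres were compared with HT29 parental cells across 19775 genes. The comparison used 4 of the 8 arrays of the study, 2 titled as first spheres and 2 titled as parental control. The arrays were Affymetrix-type expression arrays with 54675 probe sets, of which 41091 named a single gene, and each gene was read by the probe set with the highest mean over the 8 arrays. HT29 is an established human colorectal adenocarcinoma line. The parental cells were kept in DMEM with 10% fetal bovine serum. The spheres were kept without serum in a DMEM-F12 mixture carrying an N2 Plus supplement, bFGF at 10 ng/ml, EGF at 10 ng/ml and penicillin-streptomycin. Both sphere arrays had the growth factor medium and neither parental array did, so the medium and the sphere form cannot be told apart. The other 4 arrays were of SW480 cells, another colorectal line, carrying either an empty vector or Snail, 2 arrays each and both in serum. Whether the arrays within a group hold RNA of independent cultures is not given by the labels. The p-values and standard errors below measure the spread between arrays, which may be technical, pooled over all 4 groups. The SW480 pairs were closer (19 vector and 10 Snail genes at least 2-fold apart) than the HT29 parental pair (200). Where the parental arrays lie far apart, the standard errors may therefore understate the spread of the HT29 arrays.

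Sphere culture keeps cells from attaching to plastic and replaces serum with defined growth factors, and it is used to enrich for cells that survive and divide without anchorage. Serum removal takes away lipids, steroid hormones and attachment factors, while loss of attachment changes cell shape and junctions. Colon epithelial cells in tissue transport salt and water, secrete mucins and antimicrobial proteins, and renew quickly, so genes of transport, barrier, biosynthesis and stress were followed here.

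In spheres 2448 genes rose (12.4% of those tested) and 3752 fell (19.0%), together 31.4% (limma, Benjamini-Hochberg adjusted p under 0.05). With a change of at least 2-fold as well, 624 rose (3.16%) and 1400 fell (7.08%). The split depended on scaling: 39.5% of calls were rises on the deposited scale, 46.5% after quantile normalisation and 56.4% when each array was centred on its median (3968 rises, 3072 falls), because centring added 0.12 to every sphere difference on the log2 scale. The deposited values did not share 1 distribution: the upper quartile over all probe sets was 7.58 and 7.59 for parental cells, 7.36 and 7.42 for spheres and 7.40 to 7.44 for the SW480 arrays, and whether the 8 arrays were normalised together is not given in the sources used here. Without sphere array 1 the rises numbered 1593 and the falls 2658. The parental arrays were less alike than the sphere arrays: 200 genes stood at least 2-fold apart between the parental arrays and 13 between the sphere arrays, with correlations over genes of 0.991 and 0.995. The arrays of the groups did not overlap in any called gene, and they did not overlap in 62.9% of all genes. A log2 difference of 1 is a 2-fold difference in intensity. A gene's level is compared only with itself across arrays, and a level below the middle gene (6.60 in parental cells, 6.48 in spheres) may hold mostly background, since the files used here give no detection call.

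**Figure D1:**
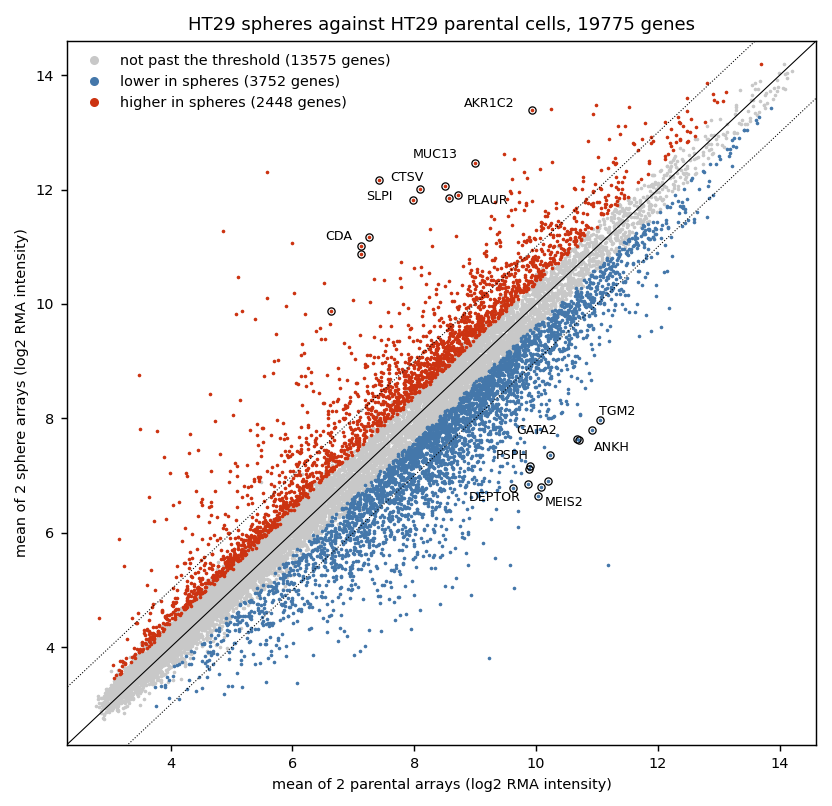
Each point is 1 of 19775 genes, with the mean of 2 parental arrays on the horizontal axis and the mean of 2 sphere arrays on the vertical axis, both as log2 RMA intensity; red points rose, blue points fell, grey points did not pass the threshold, the solid line marks equal levels and the dotted lines a 2-fold change. Circles mark the 12 largest rises and 12 largest falls among genes at or above the middle level in both groups, 12 of them labelled, and the blue cloud (3752 genes) is larger than the red cloud (2448 genes).

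Among genes measured at or above the middle level on both sides, the largest rises were of secreted and cell surface proteins, proteases and their inhibitors, and small-molecule enzymes. CDA, cytidine deaminase of the pyrimidine salvage route, read 6.83 and 7.68 on the parental arrays and 11.11 and 11.25 on the sphere arrays. The groups lay far apart, and the difference was 3.92 ± 0.23 (SE), a 15.2-fold rise (limma, adjusted p = 1.6e-06). SLPI, a secreted inhibitor of neutrophil proteases, rose from 8.19 and 7.77 to 11.81 on both sphere arrays, by 3.83 ± 0.18 (adjusted p = 5.7e-07). CTSV, a lysosomal cysteine protease, rose from 8.16 and 8.84 to 12.05 and 12.07, by 3.56 ± 0.19. In both genes the sphere arrays almost coincided while the parental arrays spread more widely, without overlap. MUC13, a mucin held in the apical membrane, read 8.77 and 9.21 in parental cells and 12.57 and 12.35 in spheres, and its other probe set rose by 2.52. SERPINE2, an inhibitor of thrombin and urokinase, rose by 3.28 ± 0.15 from 8.79 and 8.36 to 11.86 and 11.84. PLAUR, the urokinase receptor, rose by 3.18 ± 0.16 from 8.89 and 8.55 to 11.94 and 11.87, with 3 of 3 probe sets higher. A protease inhibitor and a receptor of the same protease thus both rose, each beyond the spread of its arrays. PRB1, a salivary-type proline-rich protein with close paralogs, rose by 3.74 ± 0.13 on 3 of 3 probe sets. AKR1C2, an aldo-keto reductase of steroids and prostaglandins, rose from 9.61 and 10.27 to 13.41 and 13.35, although 1 of its 3 probe sets moved by 0.13. COXFA4L2, a mitochondrial protein formerly called NDUFA4L2, rose by 3.88 ± 0.21, and ADM, CEACAM5 and TFF1 completed the 12, with rises of 3.92, 4.75 and 3.25. The second probe set of CEACAM5 differed by 0.09 with no call, and the mean of its probe sets rose by 2.42.

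The largest falls among genes measured on both sides included transcription factors and regulators of growth signalling. MEIS2, a homeobox transcription factor, read 10.23 and 10.17 in parental cells and 6.89 and 6.92 in spheres. The arrays within each group nearly coincided, and the gene fell by 3.29 ± 0.12 (limma, adjusted p = 1.4e-07). GATA2, a zinc finger transcription factor best known from blood progenitors, fell from 10.44 and 10.91 to 7.64 and 7.63, by 3.04 ± 0.16, on 2 of 3 probe sets. DEPTOR, an inhibitory subunit of the mTOR kinase complexes, read 9.78 and 10.38 against 6.68 and 6.93, but its second probe set differed by 0.24 with no call. TGM2, a transglutaminase that crosslinks proteins, fell from 11.12 and 10.71 to 7.74 and 7.87, by 3.11 ± 0.15, on 3 of 4 probe sets. ANKH, a membrane protein that exports pyrophosphate and citrate, fell by 3.08 ± 0.18 on 5 of 7 probe sets. These genes were bright in both parental arrays and at about the middle level or slightly above in both sphere arrays. ABCG2, SAMD12, HMMR, PSPH, FANCI, UHRF1 and PLEKHB1 made up the rest, with differences from -3.39 to -2.73. SAMD12 rested on 1 of its 2 probe sets, the other differing by 0.00, and PLEKHB1 on 1 of 3. With no floor on the level, the largest falls also included RARRES1, from 9.43 and 9.84 to 5.05 and 5.01 on 3 of 3 probe sets. Its sphere level lay below the middle gene, so the size of that fall may rest on background.

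**Figure D2:**
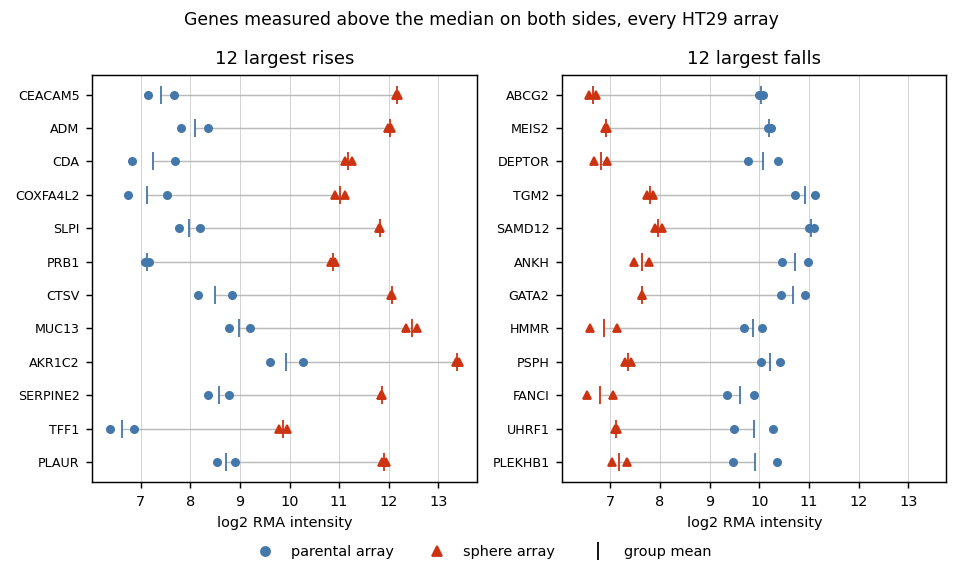
Levels on every HT29 array (log2 RMA intensity, horizontal axis) of the 12 largest rises (left) and the 12 largest falls (right) among genes measured at or above the middle level in both groups; blue circles are parental arrays, red triangles are sphere arrays and ticks are group means. No gene has overlapping groups, and among the rises the parental arrays often lie farther apart than the sphere arrays, as for CDA at 6.83 and 7.68 against 11.11 and 11.25.

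Some of the brightest genes on the arrays also moved at least 2-fold. SFN, the epithelial adaptor protein stratifin, rose from 11.48 and 11.57 to 13.36 and 13.51, by 1.91 ± 0.12, on 3 of 3 probe sets (limma, adjusted p = 3e-06). CSTB, an intracellular cathepsin inhibitor, rose by 1.37 ± 0.14 on 1 of 2 probe sets, and IFI27, LDHA and ALDOA rose by 1.07, 1.06 and 1.13. On the falling side, EEF2, the ribosome translocation factor, went from 12.75 and 13.05 to 11.71 and 12.08, by 1.00 ± 0.16. NAP1L1, a histone chaperone, fell on 7 of 7 probe sets, by 1.03 to 2.26 in log2 units. HMGN2, a nucleosome-binding protein, NONO, a nuclear RNA-binding protein, and EIF3L, an initiation factor subunit, fell by 1.29, 1.17 and 1.11.

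Gene lists were described by the share of their measured members past the threshold, read beside the shares of all genes (12.4% higher, 19.0% lower) and the median difference of all genes (0.04). In the cornified envelope and squamous keratin list, whose proteins build the tough outer layer of skin and are sparse in colon, 21 of 42 measured members rose and 1 fell, with a median of 0.44. Of these rises 10 reached 2-fold. In 23 of the 42 both group means lay below the middle level, where the signal may be mostly background. In the heat shock list 15 of 32 rose (46.9%) and 2 fell. At the other end, 21 of 31 genes of serine, one-carbon and purine synthesis fell (67.7%) and 1 rose, and 10 of 18 cytosolic tRNA synthetase genes fell (55.6%) and none rose.

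**Figure D3:**
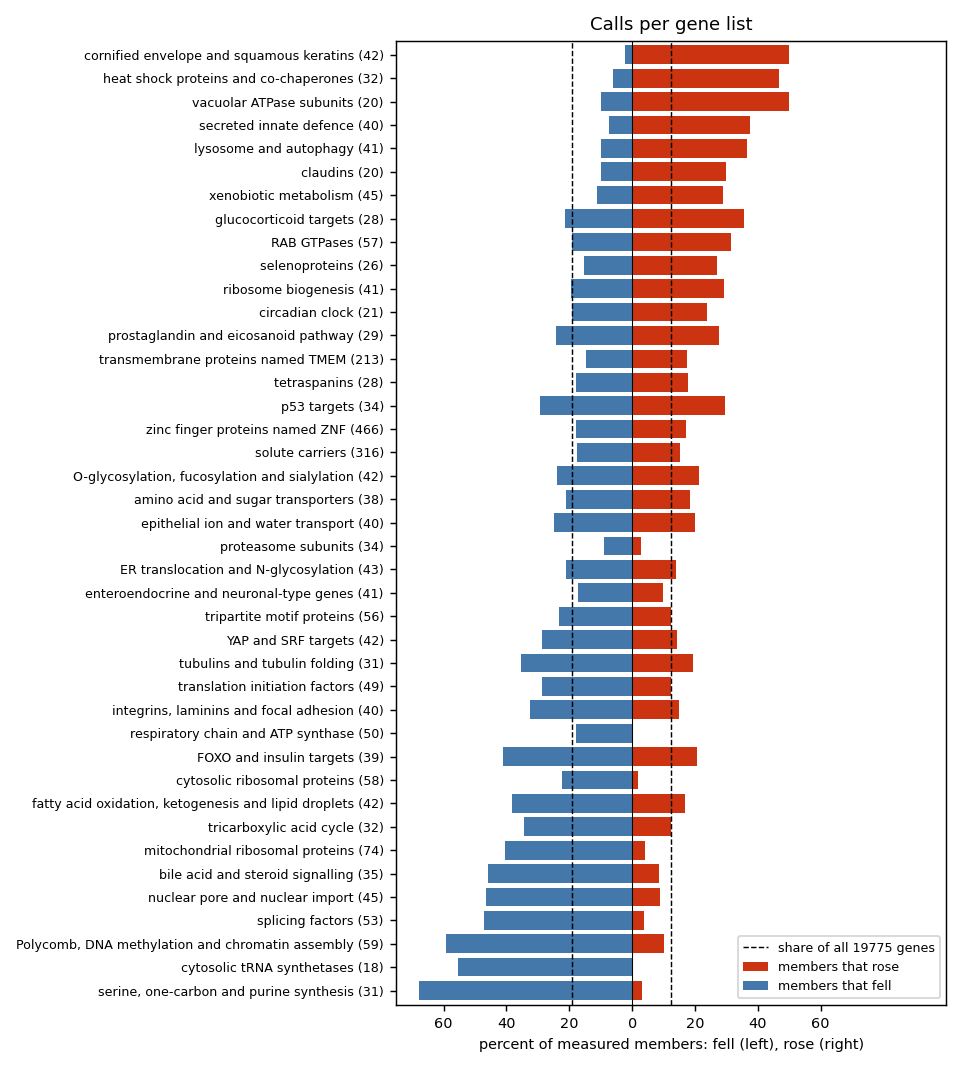
For each of 41 gene lists (members measured in brackets), the percent of measured members that rose (red, to the right) and fell (blue, to the left) in spheres; dashed lines mark the shares of all 19775 genes, 12.4% and 19.0%. The cornified, heat shock and vacuolar ATPase lists reach farthest on the rising side, the heat shock list to 46.9%, and the serine list reaches 67.7% on the falling side.

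The squamous genes that rose furthest, SPRR1B and SPRR3, encode small proline-rich proteins, which are crosslinked into the cornified envelope. SPRR1B read 4.96 and 4.76 in parental cells and 11.30 and 11.27 in spheres, a difference of 6.42 ± 0.17 (limma, adjusted p = 2e-08). SPRR3 read 5.26 and 5.07 against 9.78 and 9.96, and SPRR1A, of the same family, 6.47 and 6.42 against 9.49 and 9.68. These rises were 4.70 and 3.14, and the other probe sets of SPRR3 and SPRR1A rose by 1.60 and 6.22. All 3 genes read below the middle level on the parental arrays and well above it on the sphere arrays. The parental level, and with it the size of the difference, may therefore rest on background. ECM1, an extracellular matrix protein of skin, was measured on both sides and rose from 7.60 and 7.07 to 10.52 and 10.36. SERPINB3, a squamous cell serpin almost identical in sequence to SERPINB4, rose from 4.81 and 4.66 to 7.95 and 7.97, and signal from the paralogs may be shared between their probe sets. The keratins KRT16, KRT15 and KRT23, chosen after their values were seen, rose by 1.87, 1.38 and 2.46, whereas KRT13 fell by 0.86 and lost its call when either sphere array or parental array 1 was left out. LORICRIN, RPTN, CRNN, FLG and TGM1, likewise chosen after seeing values, stayed below the middle level in both groups and showed differences of 0.01 to 0.19, with no calls. Of the 21 rises, 13 held in each of the 4 fits that left out 1 HT29 array.

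The promoter windows of these genes, 250 bases before to 50 after the start in RefSeq on GRCh38.p14, were searched on both strands for TGANTCA, the letters of an AP-1 site, and windows of the 3 small proline-rich genes named above are printed because they carry it. Capitals mark the match.
SPRR1B promoter (chr1:153030953-153031252, plus strand) follows, then SPRR3 (chr1:153001499-153001798, plus strand) and SPRR1A (chr1:152983831-152984130, plus strand).
SPRR1B promoter: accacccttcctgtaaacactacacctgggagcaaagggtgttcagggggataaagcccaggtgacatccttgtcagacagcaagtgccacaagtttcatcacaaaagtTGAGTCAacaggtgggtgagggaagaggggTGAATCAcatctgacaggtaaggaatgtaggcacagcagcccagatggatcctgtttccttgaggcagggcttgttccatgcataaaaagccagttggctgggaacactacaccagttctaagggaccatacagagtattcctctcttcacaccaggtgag
SPRR3 promoter: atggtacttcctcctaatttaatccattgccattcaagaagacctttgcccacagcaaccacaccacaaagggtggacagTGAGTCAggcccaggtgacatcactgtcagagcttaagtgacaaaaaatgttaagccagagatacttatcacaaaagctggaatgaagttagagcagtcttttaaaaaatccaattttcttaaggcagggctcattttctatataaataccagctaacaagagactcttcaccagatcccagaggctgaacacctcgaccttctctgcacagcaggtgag
SPRR1A promoter: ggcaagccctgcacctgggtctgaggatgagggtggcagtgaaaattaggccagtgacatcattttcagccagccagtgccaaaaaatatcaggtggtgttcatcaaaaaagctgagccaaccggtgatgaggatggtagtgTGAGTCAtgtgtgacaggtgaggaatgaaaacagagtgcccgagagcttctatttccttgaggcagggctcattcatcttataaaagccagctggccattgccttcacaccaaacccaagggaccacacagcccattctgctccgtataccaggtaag
The letters were present in 14 of 30 windows of the squamous list, in 7 of the 16 windows of genes that rose, and in 7.764% of all 27305 promoter windows. They were also in the windows of LORICRIN, FLG, RPTN and CRNN, which did not pass the threshold, and 9 of the 14 windows with a match lay on chromosome 1, where many of these genes neighbour each other. A match describes the sequence only.

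Of 40 measured secreted defence genes 15 were higher (37.5%), 3 lower and 22 not past the threshold. In 28 of the 40 both group means lay below the middle level, where the signal may be mostly background. DEFB1, an epithelial beta-defensin, rose from 6.89 and 7.33 to 9.48 and 9.45, by 2.35 ± 0.16 (limma, adjusted p = 4.6e-06). CD55, which protects cells from complement, rose from 10.82 and 9.70 to 12.48 and 12.49 on 3 of 3 probe sets. PI3, the elastase inhibitor elafin, reached 12.27 and 12.34 from 5.95 and 5.22. Its parental level lay below the middle gene, so the size of the rise may rest on background. The sphere arrays agreed closely in all 3, and the parental arrays of CD55 were more than 2-fold apart. LCN2, the iron-siderophore-binding lipocalin, went the other way, from 12.10 and 11.66 to 9.51 and 9.54, by -2.35 ± 0.16. Chosen after seeing values, the complement genes CFB, C4BPB and CD59 rose by 2.15, 1.62 and 1.26, CFB on 1 of 2 and CD59 on 3 of 5 probe sets. LYZ, lysozyme, was bright on every array, with means of 12.9 in both groups, and differed by 0.07 ± 0.12.

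Claudins, the strands of tight junctions, rose in 6 of 20 cases and fell in 2. CLDN18, typical of stomach and lung, rose from 5.75 and 6.52 to 8.71 and 8.78 on 4 of 4 probe sets, by 2.61 ± 0.21 (limma, adjusted p = 1.1e-05). CLDN2, a cation- and water-permeable claudin, fell from 8.04 and 7.62 to 5.87 and 6.01. CLDN23 and CLDN4 rose by 1.70 and 1.23, on 2 of 3 and 1 of 2 probe sets. CLDN3 read 10.19 and 11.15 against 11.51 and 11.71, and its call was lost without parental array 1 (0.46) and without either sphere array (1.04 and 0.84). Its falls numbered 1 without sphere array 1.

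The enzymes that build mucin-type sugar chains changed in both directions, with 9 of 42 higher (21.4%) and 10 lower (23.8%). The shares of all genes were 12.4% and 19.0%. GALNT5, which starts O-glycans, rose by 1.85 ± 0.24 on 4 of 5 probe sets, ST3GAL1, which caps core 1 with sialic acid, by 1.56 ± 0.15 on 3 of 3, and B3GNT5, of lacto-series glycolipids, by 1.28 ± 0.12. FUT1, which makes the H antigen, read 8.14 and 7.33 in parental cells and 6.11 and 6.29 in spheres, and ST6GALNAC1, the sialyl-Tn synthase, 6.35 and 6.97 against 5.32 and 5.47. Both fell, by 1.53 ± 0.22 and 1.26 ± 0.20 (limma, adjusted p = 0.00042 and 0.00085), with the sphere levels below the middle gene. The list's rises numbered 5 without sphere array 1.

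Ion and water transport genes moved in both directions, with 8 of 40 higher, 10 lower and 22 not called. CFTR, the chloride channel of crypt secretion, read 9.59 and 9.81 in parental cells and 6.27 and 6.49 in spheres. It fell by 3.32 ± 0.14 on 3 of 6 probe sets (limma, adjusted p = 2.5e-07). Among other falls, some of them named after seeing values, KCNE3 and KCNQ1, potassium channel subunits, fell by 1.88 and 0.71, ANO1, a calcium-activated chloride channel, by 1.43, and SLC12A2, the sodium-potassium-chloride cotransporter, by 1.07. SCNN1A, the alpha subunit of the sodium channel of absorption, fell by 1.59 on 1 of 3 probe sets. The KCNQ1 call was lost in 2 of the 4 fits with 1 array left out. AQP1, a water channel, rose from 5.71 and 7.33 to 10.43 and 10.32, by 3.86 ± 0.39 on 2 of 2 probe sets. Its parental arrays lay well apart, yet the gap between groups was wider. AQP5, another water channel, moved oppositely, from 7.79 and 7.69 to 5.47 and 5.20, while AQP11 rose from 6.23 and 6.21 to 8.62 and 8.50. FXYD3, a regulator of the sodium pump, rose by 2.17 ± 0.19, with its other probe set at 0.46.

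Amino acid and sugar transporters likewise split, 7 of 38 higher (18.4%) and 8 lower (21.1%), beside 12.4% and 19.0% of all genes. Their median of -0.06 became 0.06 when arrays were centred. SLC6A14, a broad amino acid importer, read 3.46 and 3.52 on the parental arrays, near the bottom of the scale, and 7.69 and 7.95 on the sphere arrays. The difference of 4.33 ± 0.15 (limma, adjusted p = 1e-07) therefore starts from a level that may be background. SLC2A1, the basal glucose transporter, rose from 9.98 and 9.23 to 12.22 and 12.14, by 2.58 ± 0.20. SLC7A2, a cationic amino acid transporter, fell from 8.28 and 8.32 to 5.73 and 5.42 on 1 of 3 probe sets. SLC1A4, a neutral amino acid exchanger, fell from 9.14 and 7.99 to 6.57 and 6.22, and SLC43A1, a leucine-type transporter, from 9.98 and 9.48 to 7.54 and 7.77. In 8 of the 38 genes the parental arrays stood at least 2-fold apart. Among all 316 solute carriers 48 rose (15.2%) and 55 fell (17.4%), near the shares of all genes. SLC22A4, the ergothioneine transporter, rose by 3.04 ± 0.13, whereas SLC44A3 and SLC38A11 fell by 2.86 ± 0.18 and 3.15 ± 0.28. The solute carriers that rose numbered 30 without sphere array 1.

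Heat shock proteins refold damaged proteins with the help of co-chaperones, and their genes are induced by heat shock factor. HSPA6, a strictly inducible member of the HSP70 family that is close in sequence to a neighbouring copy, read 5.20 and 5.02 in parental cells and 10.42 and 10.53 in spheres. The rise of 5.37 ± 0.13 (limma, adjusted p = 2e-08) starts below the middle level. HSPB8 and CRYAB, small heat shock proteins, rose from 5.79 and 5.71 to 7.82 and 8.11 (1 of 2 probe sets) and from 5.47 and 5.46 to 6.99 and 6.96, again from below that level. HSPH1, a nucleotide exchange factor for HSP70 proteins, was bright throughout and rose from 11.06 and 11.05 to 12.32 and 12.34, by 1.28 ± 0.12, on 3 of 3 probe sets. HSPA13 rose by 1.22 ± 0.18, its second probe set giving -0.46. Among members chosen after seeing values, HSP90AA1, BAG3, DNAJA1 and HSPB1 rose by 0.70, 0.89, 0.78 and 0.91 (DNAJA1 on 1 of 2 probe sets), whereas HSPD1 and HSPA9, chaperones of mitochondria, differed by -0.18 and 0.01 and HSF1 by 0.01. The HSPB1 call was lost in 3 of the 4 fits with 1 array left out. Of the list's 15 rises, 13 held in all 4 such fits. The list's falls were HSPA4L and DNAJC7, by 0.85 and 0.54, and without sphere array 1 they numbered 1. The DNAJC7 fall rested on 1 of 3 probe sets, and their mean differed by 0.08. The HSPA13 call was lost as well with the mean of probe sets (0.38).

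The letters GAANNTTC, the core of a heat shock element, were searched in the same windows, and those of HSPA6 and HSPB8 are printed because these genes had the largest rises of the list and hold matches (capitals).
HSPA6 promoter (chr1:161524290-161524589, plus strand) follows, then HSPB8 (chr12:119178681-119178980, plus strand).
HSPA6 promoter: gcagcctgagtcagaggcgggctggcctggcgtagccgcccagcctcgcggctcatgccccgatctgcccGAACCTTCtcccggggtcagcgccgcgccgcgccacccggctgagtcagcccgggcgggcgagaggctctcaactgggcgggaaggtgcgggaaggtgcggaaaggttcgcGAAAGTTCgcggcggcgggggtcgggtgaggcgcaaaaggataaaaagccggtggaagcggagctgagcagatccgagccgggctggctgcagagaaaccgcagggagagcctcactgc
HSPB8 promoter: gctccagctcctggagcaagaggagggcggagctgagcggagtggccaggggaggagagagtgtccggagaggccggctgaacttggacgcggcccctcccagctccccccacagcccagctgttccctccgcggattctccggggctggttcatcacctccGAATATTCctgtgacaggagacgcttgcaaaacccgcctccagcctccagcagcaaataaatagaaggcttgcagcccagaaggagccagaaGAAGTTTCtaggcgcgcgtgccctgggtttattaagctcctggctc
The letters were in 6 of the 14 windows of heat shock genes that rose (HSPA1L, HSPA6, HSPB1, HSPB8, DNAJA1 and DNAJB6), in neither of the windows of the 2 that fell, and in 6.867% of all windows. CHORDC1, a co-chaperone that differed by 0.12 with no call, held 3 matches, the most of any window of the list, while HSPA6, HSPB8 and DNAJA1 held 2 each.

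**Figure D4:**
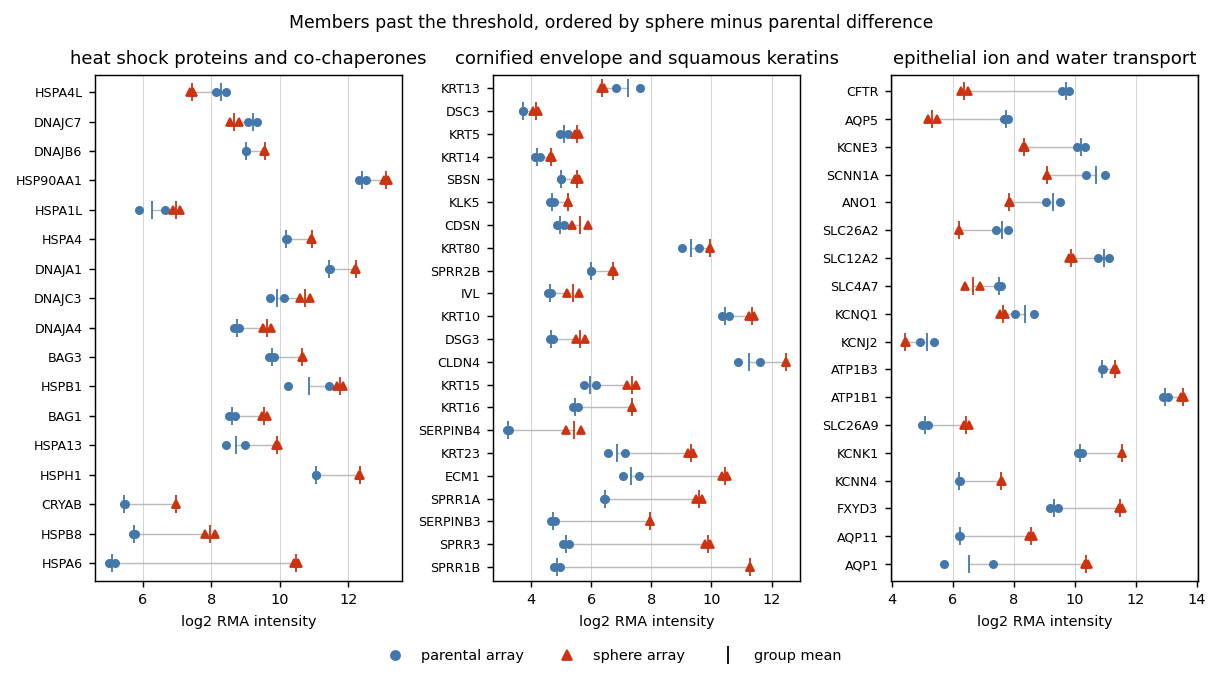
Levels on every HT29 array (log2 RMA intensity, horizontal axis) of the members past the threshold in the heat shock (left), cornified envelope (middle) and ion and water transport (right) lists, ordered from falls to rises; blue circles are parental arrays, red triangles are sphere arrays and ticks are group means. The rises end with HSPA6 (10.42 and 10.53 in spheres), SPRR1B (11.30 and 11.27) and AQP1 (10.43 and 10.32).

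Lysosome and autophagy genes rose in 15 of 41 cases (36.6%) and fell in 4. ATG16L1, which places the lipid-conjugating machinery on the growing autophagosome, rose from 7.53 and 7.57 to 9.12 and 9.004, by 1.51 ± 0.13 (limma, adjusted p = 1.6e-05). The cargo receptor SQSTM1 rose from 10.68 and 10.86 to 12.17 and 12.13 on 3 of 5 probe sets, and the mitochondrial receptor BNIP3L from 8.80 and 9.42 to 10.37 and 10.46. NBR1, a related cargo receptor, fell from 10.27 and 10.76 to 9.20 and 9.26, on 2 of 4 probe sets. GABARAPL1, a ubiquitin-like protein of the autophagosome membrane, rose by 1.30 ± 0.19. The list had 9 rises and 2 falls without sphere array 1. The proton pump that acidifies lysosomes rose in many subunits: 10 of 20 vacuolar ATPase genes rose, among them ATP6V1C1 and ATP6V0B, by 1.12 ± 0.14 and 0.99 ± 0.12, and ATP6V1C2 by 1.10 ± 0.13. The list's falls were ATP6V1B1, a subunit of acid-secreting cells, from 7.72 and 8.56 to 5.58 and 6.11 on 1 of 2 probe sets, and ATP6V0E2, from 9.24 and 9.65 to 7.40 and 7.80. RAB GTPases, which direct vesicle traffic, rose in 18 of 57 cases and fell in 11, with RAB9A of late endosome recycling, RAB7B and RAB22A up by 1.56, 1.62 and 1.52 (RAB22A on 2 of 3 probe sets). RAB8B fell by 1.30 ± 0.18 on 2 of 3, and RAB26 by 1.41 ± 0.37, a call lost without sphere array 1 or without sphere array 2. RAB counts fell to 10 rises and 6 falls without sphere array 1, and to 11 rises and 7 falls without sphere array 2.

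Enzymes that handle foreign compounds rose in 13 of 45 cases (28.9%) and fell in 5. CYP4F3, a cytochrome P450 that hydroxylates fatty acids and leukotrienes, rose from 4.02 and 4.60 to 7.53 and 7.94, from below the middle level. NAT1, an arylamine acetyltransferase, rose from 6.88 and 6.63 to 8.20 and 8.47, and SULT2B1, a sterol sulfotransferase, by 1.61 ± 0.18. CYP2B6 fell from 7.20 and 7.31 to 4.47 and 4.15, but its second probe set differed by -0.04, and UGT8 fell by 1.46 ± 0.12 on 2 of 2. In the prostaglandin and eicosanoid list 8 of 29 rose and 7 fell. PTGS2, the inducible cyclooxygenase, read 7.99 and 6.92 against 8.83 and 8.79 and rose by 1.35 ± 0.28 (limma, adjusted p = 0.0041), while PTGS1, the constitutive one, fell from 7.79 and 8.02 to 6.15 and 5.96 on 4 of 4 probe sets. The paired cyclooxygenases thus moved in opposite directions. AKR1C1, nearly identical to AKR1C2, rose from 9.84 and 10.63 to 13.41 on both sphere arrays, on 5 of 5 probe sets, and CBR3, a carbonyl reductase, rose by 2.07 ± 0.12.

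Selenoproteins rose in 7 of 26 cases and fell in 4. TXNRD1, the cytosolic thioredoxin reductase, rose from 11.28 and 11.41 to 13.06 and 13.14, by 1.76 ± 0.12 (limma, adjusted p = 5.2e-06), while its second probe set differed by -0.06. SELENOP, the secreted selenium carrier, rose from 5.65 and 6.96 to 8.49 and 8.76 on 2 of 3 probe sets, and SELENOM and SELENOW by 1.73 ± 0.18 and 1.14 ± 0.16. EEFSEC, the elongation factor that inserts selenocysteine, fell from 8.31 and 8.30 to 6.88 and 6.92. The selenoprotein falls numbered 2 without sphere array 1 and 7 with the mean of probe sets.

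Serine is made from a glycolytic intermediate by 3 enzymes, and all 3 fell. PHGDH, the first, read 10.03 and 9.53 in parental cells and 7.42 and 7.41 in spheres. PSAT1, the second, read 12.05 and 11.20 against 9.78 and 9.92, and PSPH, the last, 10.42 and 10.02 against 7.30 and 7.41. The falls were 2.36 ± 0.17, 1.77 ± 0.23 and 2.86 ± 0.15 (limma, adjusted p = 4.8e-06, 0.0002 and 8.3e-07), without overlap, and PSPH fell on 3 of 3 probe sets. AHCY, which clears the product of methylation reactions, fell from 11.45 and 11.38 to 9.96 and 10.06. PFAS, of purine synthesis, fell from 8.49 and 8.15 to 6.89 and 7.12. In all, 21 of 31 members of serine, one-carbon and purine synthesis fell, 12 of them at least 2-fold, and the median was -0.88. Chosen after seeing values, the folate enzymes MTHFD1, MTHFD2 and SHMT2 fell by 1.10, 1.08 and 0.95, and MAT2A, which makes S-adenosylmethionine, differed by 0.10. The 1 rise, CBS, by 0.61, was lost in 3 of the 4 fits that left out 1 array and with the mean of its probe sets (0.22). Parental array 1 was brighter than parental array 2 in 25 of the 31 genes, and the falls numbered 18 to 22 when any 1 HT29 array was left out.

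The tRNA synthetases charge tRNAs with amino acids, and several are induced when amino acids run short. LARS1, for leucine, read 10.73 and 10.29 in parental cells and 8.83 and 8.88 in spheres. IARS1, for isoleucine, read 12.52 and 11.68 against 10.53 and 10.60, and WARS1, for tryptophan, 11.06 and 9.76 against 8.81 and 8.89. They fell by 1.66 ± 0.18, 1.53 ± 0.22 and 1.56 ± 0.31 (limma, adjusted p = 6.4e-05, 0.00046 and 0.0034), with sphere arrays close together and parental array 1 above parental array 2. SARS1, for serine, and EPRS1, for glutamate and proline, fell by 1.11 ± 0.20 and 1.02 ± 0.19, the SARS1 call being lost with the mean of its probe sets (-0.67). Both sphere arrays lay below both parental arrays in 14 of the 18 genes, and parental array 1 exceeded parental array 2 in 17 of 18. The falls numbered 9 to 15 when any 1 HT29 array was left out. RARS1, for arginine, chosen after seeing values, differed by 0.09.

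The letters TGATGNAA, the core of an amino acid response element, were searched in the same windows, and those of IARS1, AARS1 and TARS1 are printed because they hold it (capitals, here on the reverse strand).
IARS1 promoter (chr9:92293648-92293947, minus strand) follows, then AARS1 (chr16:70289457-70289756, minus strand) and TARS1 (chr5:33440715-33441014, plus strand).
IARS1 promoter: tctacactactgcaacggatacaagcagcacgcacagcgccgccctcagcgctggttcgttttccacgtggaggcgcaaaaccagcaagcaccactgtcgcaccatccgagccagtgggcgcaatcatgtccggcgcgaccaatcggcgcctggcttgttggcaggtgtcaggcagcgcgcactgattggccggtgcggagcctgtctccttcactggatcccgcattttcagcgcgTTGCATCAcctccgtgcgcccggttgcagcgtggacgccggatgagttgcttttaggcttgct
AARS1 promoter: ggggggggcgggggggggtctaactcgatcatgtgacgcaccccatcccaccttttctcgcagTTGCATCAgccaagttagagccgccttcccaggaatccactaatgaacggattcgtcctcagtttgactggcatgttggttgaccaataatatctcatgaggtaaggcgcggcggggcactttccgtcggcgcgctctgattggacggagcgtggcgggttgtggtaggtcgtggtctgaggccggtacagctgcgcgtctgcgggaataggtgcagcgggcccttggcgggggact
TARS1 promoter: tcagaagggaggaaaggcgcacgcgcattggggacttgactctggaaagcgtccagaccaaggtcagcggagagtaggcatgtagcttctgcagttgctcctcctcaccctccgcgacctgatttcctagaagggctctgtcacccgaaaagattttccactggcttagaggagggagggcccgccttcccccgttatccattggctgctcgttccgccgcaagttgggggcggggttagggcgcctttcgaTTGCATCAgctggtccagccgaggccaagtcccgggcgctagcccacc
The letters were in 5 of 15 synthetase windows (AARS1, CARS1, IARS1, NARS1 and TARS1), all of them among the 8 windows of synthetase genes that fell, and in 3.673% of all windows. The calls of CARS1 and TARS1 were lost with the mean of their probe sets (-0.27 and -0.29). In the serine, one-carbon and purine list the letters were in 1 of 25 windows.

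**Figure D5:**
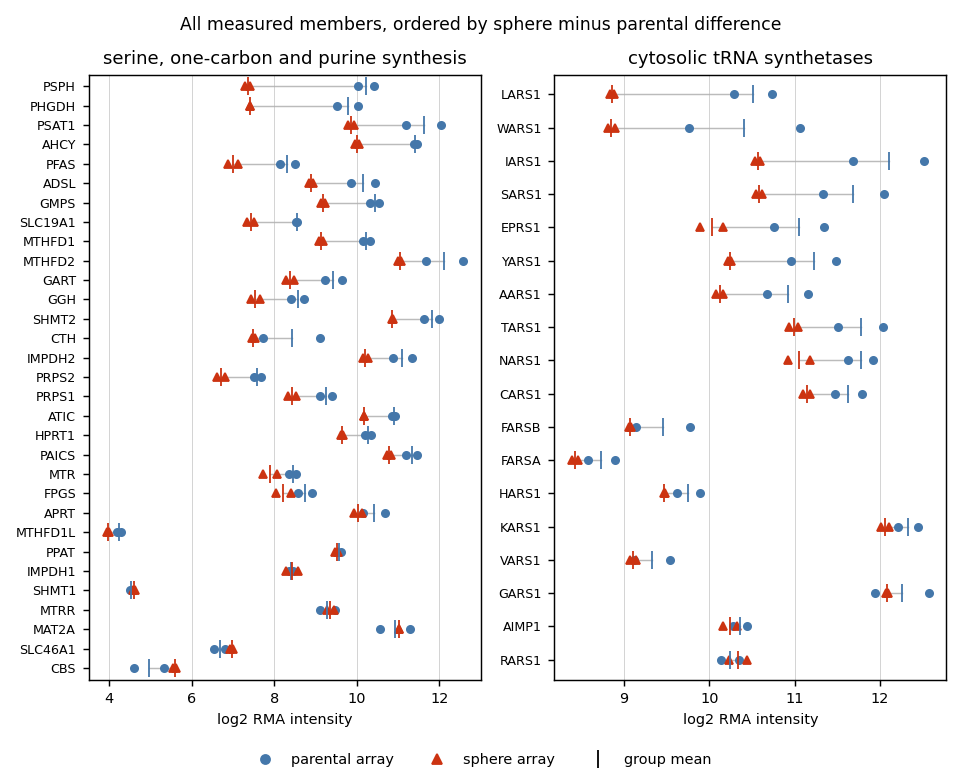
Levels on every HT29 array (log2 RMA intensity, horizontal axis) of all measured genes of serine, one-carbon and purine synthesis (left, 31 genes) and of the cytosolic tRNA synthetases (right, 18 genes), ordered by sphere minus parental difference; blue circles are parental arrays, red triangles are sphere arrays and ticks are group means. The sphere arrays lie to the left for most genes, and parental arrays such as those of WARS1 (11.06 and 9.76) are spread more widely than sphere arrays.

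Of 41 ribosome biogenesis genes 12 rose (29.3%) and 8 fell, with a median of 0.13. PNO1, an assembly factor of the small subunit, rose from 9.39 and 8.89 to 10.40 and 10.37 on 3 of 3 probe sets, by 1.25 ± 0.16 (limma, adjusted p = 0.00022). NOP16, NOP2, BYSL and POLR1C, of nucleolar assembly and RNA polymerases I and III, rose by 1.02 to 1.09, NOP16 on 2 of 4 probe sets. In 40 of the 41 genes parental array 1 was brighter than parental array 2, and the median gap over the list was 0.39. The list's median difference ran from -0.01 to 0.33 depending on which HT29 array was left out. As in every called gene, the rises stood above both parental arrays. The falls numbered 4 without parental array 1 and 3 without sphere array 1. Of 58 cytosolic ribosomal protein genes 1 rose and 13 fell, with a median of -0.26, and with the mean of each gene's probe sets in place of the brightest 26 fell. RPL3 fell from 13.23 and 13.21 to 12.37 and 12.46, and RPS9 by 0.57 ± 0.12 on 1 of 3 probe sets. RPS15A, RPL14 and RPL6 each fell by 0.47 and lost their call without sphere array 1 (0.44, 0.37 and 0.41 lower), RPL14 also without parental array 2. That list's falls numbered 7, 3 and 6 without parental array 2, sphere array 1 and sphere array 2, and the rise was lost in each of these fits. Mitochondrial ribosomal proteins fell in 30 of 74 cases (40.5%) and rose in 3: MRPS9 fell from 9.42 and 9.27 to 7.91 and 8.08, MRPS27 by 1.30 ± 0.13 on 1 of 2 probe sets, MRPL45 and MRPL11 by 0.99 and 0.98, and MRPS6 rose by 1.14 ± 0.20. The mitochondrial falls numbered 17 without sphere array 1.

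Translation initiation factors fell in 14 of 49 cases and rose in 6. EIF2D and EIF2S3 fell by 1.05 ± 0.14 and 1.02 ± 0.12, and EIF5A2, a paralog of the factor that carries hypusine, rose from 6.76 and 6.41 to 8.13 and 8.12. EIF4EBP1, a repressor of cap-dependent initiation, read 10.26 and 9.004 against 8.47 and 8.62, a call (limma, adjusted p = 0.02) lost without sphere array 1 or without sphere array 2. The falls numbered 8 and 9 without these arrays. Splicing factors fell in 25 of 53 cases (47.2%) and rose in 2, mostly by less than 2-fold: SNRPA, of the U1 particle, fell from 10.85 and 10.87 to 9.78 and 9.82, and SNRPF and SF3A3 by 0.99 and 0.89. HNRNPM and HNRNPA1, RNA-binding proteins that regulate splicing, fell by 0.95 and 0.92 on their brightest probe sets, while other probe sets reached 0.44 and 0.64 in the opposite direction and the calls were lost with the mean of probe sets (-0.13 and -0.05). The splicing falls numbered 13 without parental array 1 and 9 without sphere array 1, and the rises 1, 0 and 0 without parental array 2, sphere array 1 and sphere array 2. Proteasome subunits were called less often than all genes, with 1 rise (2.9%) and 3 falls (8.8%) of 34, beside 12.4% and 19.0%. Their median of -0.12 became 0.005 after centring. PSMC3, PSMA4 and PSMD4 fell by 0.87, 0.79 and 0.72, and PSMD12 rose by 0.85 on 1 probe set and fell on the other by 0.75. Without parental array 1 the rises of that list numbered 4, and without parental array 2 the falls 6. With the mean of probe sets none rose and 7 fell.

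Nuclear pore and import genes fell in 21 of 45 cases (46.7%) and rose in 4. NUP210, a membrane-anchored pore protein, fell from 9.22 and 9.05 to 7.12 and 6.67 on 4 of 5 probe sets, a difference of -2.23 ± 0.16 (limma, adjusted p = 5.3e-06). NUP107, NUP133 and NUP43, of the Y-shaped scaffold, fell by 1.33, 1.23 and 1.23, and NUP88 by 1.23, the second probe sets of NUP133 and NUP88 differing by 0.04 and 0.37. Without sphere array 2 the rises numbered 2, and the falls numbered 20 to 25 whichever HT29 array was left out.

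Chromatin regulators were among the most often lowered genes, with 35 of 59 Polycomb, DNA methylation and chromatin assembly genes lower (59.3%), 6 higher and a median of -0.63. UHRF1, which reads hemimethylated DNA behind the replication fork, fell from 10.27 and 9.49 to 7.13 and 7.10, by 2.77 ± 0.21 (limma, adjusted p = 7.8e-06). HELLS, a remodeller that supports DNA methylation, fell from 8.78 and 8.14 to 5.68 and 5.88, and HMGB2 from 12.15 and 11.95 to 9.50 and 9.70 on 1 of 2 probe sets, the other differing by -0.03. LMNB1, a B-type lamin of the nuclear envelope, fell by 2.64 ± 0.22, and ASF1B, a histone chaperone, by 2.19 ± 0.15. Chosen after seeing values, DNMT1 and EZH2, the maintenance DNA methyltransferase and the Polycomb methyltransferase, fell by 1.93 and 1.61, LMNA differed by 0.28 and EED by -0.08. HDAC9 and KDM3A rose by 2.02 and 1.37, on 1 of 5 and 1 of 2 probe sets. Many of these genes are made in dividing cells. In bulk RNA, fewer cells of a kind and less RNA in each cell cannot be told apart.

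In the list of fatty acid oxidation, ketogenesis and lipid droplets 16 of 42 members fell (38.1%) and 7 rose. ACADM, which opens the oxidation of medium-chain fatty acids, fell from 9.79 and 9.88 to 8.14 and 8.20, by 1.67 ± 0.13 (limma, adjusted p = 8.4e-06). HADH, the short-chain dehydrogenase of the third step, fell from 10.20 and 10.41 to 8.46 and 8.69 on 3 of 3 probe sets, and ECI1, an isomerase for unsaturated chains, from 10.44 and 10.03 to 8.66 and 8.75. PPARG, a nuclear receptor for fatty acids that is abundant in colon, fell from 10.27 and 10.77 to 8.42 and 8.45. PLIN2, a coat protein of lipid droplets on the same list, rose from 7.99 and 8.72 to 10.12 and 10.25, its second probe set differing by 0.27. Chosen after seeing values, ACSL1 and ANGPTL4 rose by 1.18 and 1.39, while CPT1A, the gate of mitochondrial import, differed by -0.08. Without sphere array 1, and likewise without sphere array 2, the rises numbered 4.

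In the tricarboxylic acid cycle list 11 of 32 fell (34.4%) and 4 rose. IDH1 and IDH2, the NADP-linked isocitrate dehydrogenases, fell by 1.39 ± 0.15 and 1.04 ± 0.15 (limma, adjusted p = 5.5e-05 and 0.0004), IDH1 from 12.06 and 12.38 to 10.81 and 10.85. ME3 and GOT2, mitochondrial malic enzyme and aspartate aminotransferase, fell by 1.34 and 0.87, although the second probe set of ME3 differed by 0.36 in the other direction, and PDK1, which inhibits pyruvate dehydrogenase, rose from 8.83 and 8.36 to 9.69 and 9.79. The cycle's falls numbered 6 without sphere array 1. Respiratory chain genes fell in 9 of 50 cases (18.0%, beside 19.0% of all genes), with a median of -0.14. None of them rose, beside 12.4% of all genes. NDUFV1 of complex I fell by 0.97 ± 0.13 on 1 of 2 probe sets, and NDUFS6, ATP5F1A and ATP5PO by 0.71, 0.70 and 0.67, the ATP5F1A call being lost with the mean of its probe sets (-0.29). NDUFA10 fell by 0.71 on its brightest probe set, but 1 of its 5 probe sets rose, by 1.44. The falls numbered 5 without sphere array 1, and 1 gene rose without parental array 1.

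Targets of hormones and growth pathways were mixed. Of 39 FOXO and insulin targets 16 fell (41.0%) and 8 rose, with a median of -0.15 that became 0.04 after quantile normalisation. BCL6, a transcriptional repressor, read 9.50 and 10.98 against 7.87 and 8.13, PCK2, mitochondrial PEP carboxykinase, 10.54 and 9.58 against 7.95 and 8.15, and SESN1, a leucine-sensing inhibitor of mTOR signalling, 7.50 and 8.19 against 5.85 and 6.36. All 3 fell, by 2.24 ± 0.35, 2.01 ± 0.25 and 1.75 ± 0.25, although their parental arrays were well apart, BCL6 on 2 of 3 probe sets. Parental array 2 was brighter than parental array 1 in 32 of the 39 genes, at least 2-fold apart either way in 7, and the part of this gap in the list's falls was not tested. SOD2 and ARRDC4 rose by 1.75 ± 0.23 and 1.68 ± 0.15. The rises numbered 5 without parental array 1 or without sphere array 1. Of 28 glucocorticoid targets 10 rose (35.7%) and 6 fell (21.4%), beside 12.4% and 19.0% of all genes. At least 2-fold changes were found in 6 rises and 5 falls. Named by size, TSC22D3, KLF9 and DDIT4 fell by 1.76 ± 0.14, 1.70 ± 0.14 and 1.60 ± 0.25 (limma, adjusted p = 1.2e-05, 1.5e-05 and 0.00064). TSC22D3 fell on 2 of 3 and KLF9 on 2 of 5 probe sets. The largest rise of the list was that of DUSP1, a phosphatase that growth factors also induce, from 10.14 and 11.38 to 12.29 and 12.15. Without sphere array 2 the rises numbered 6.

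Of 34 p53 targets 10 rose and 10 fell, with a median of -0.09 that became 0.04 after centring. CDKN1A, the cyclin-dependent kinase inhibitor p21, rose from 8.79 and 8.60 to 11.25 and 11.11, by 2.49 ± 0.14 (limma, adjusted p = 1.2e-06). PHLDA3, an inhibitor of AKT, and TNFRSF10B, a death receptor, rose by 1.60 and 1.25. SESN1 stands on this list too, and GDF15, CCNG1 and BAX, chosen after seeing values, fell by 1.15, 1.09 and 0.92 (GDF15 on 1 of 3 probe sets), while MDM2 differed by 0.32. The falls numbered 5 without sphere array 1. Among 21 clock genes 5 rose and 4 fell. RORA, a nuclear receptor of the clock, rose from 5.43 and 6.67 to 8.59 and 8.66 on 6 of 8 probe sets, and BHLHE40 from 7.67 and 8.56 to 10.66 and 10.65. Its paralog BHLHE41 fell from 11.64 and 11.67 to 10.07 and 9.93 on 3 of 4 probe sets, so the paralogs moved in opposite directions. CLOCK fell by 1.18 ± 0.16 on 3 of 4 and TIMELESS by 1.66 ± 0.14 on 1 of 2 probe sets. The clock rises numbered 3 without parental array 1 or without sphere array 1.

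Of 40 integrin, laminin and focal adhesion genes 13 fell (32.5%, beside 19.0% of all genes) and 6 rose, with a median of -0.07 that became 0.05 after centring. ITGA1, an integrin subunit that binds collagen, read 8.28 and 8.96 in parental cells and 4.94 and 5.17 in spheres. It fell by 3.57 ± 0.21 on 2 of 3 probe sets (limma, adjusted p = 1.9e-06), to below the middle level. FERMT1, the epithelial kindlin, fell by 1.38 ± 0.13 on 3 of 4 probe sets and TNS3, a tensin, by 1.37 ± 0.24 on 1 of 2. LAMB3, a chain of the basement membrane laminin of epithelia, rose from 9.52 and 9.29 to 11.16 and 10.87, and ITGB8 from 8.18 and 8.46 to 9.77 and 9.92 on 3 of 5 probe sets. ITGB1, the common beta subunit, chosen after seeing values, differed by -0.06. Without sphere array 2 the falls numbered 8. Among YAP and SRF targets 12 of 42 fell and 6 rose, but 8 fell and 8 rose with the mean of probe sets. F3, tissue factor, rose from 7.14 and 6.73 to 9.14 and 9.36, CCN1, a matrix signalling protein, by 1.72 ± 0.13, and the YAP kinase LATS2 by 1.20 ± 0.14 on 4 of 4 probe sets. TGFB2 fell from 8.49 and 7.18 to 5.55 and 5.56 (1.14 lower with the mean of its probe sets), and NT5E, which makes adenosine outside cells, by 2.00 ± 0.15 on 4 of 4. CCN2, a target shared with CCN1 and chosen after seeing values, differed by 0.22. In the tubulin list 11 of 31 fell and 6 rose, with a median of -0.10 that became 0.02 after centring: TUBB2A rose from 9.39 and 9.68 to 11.49 and 11.58, its paralog TUBB2B fell by 1.36 from a level below the middle gene, and STMN1, which destabilises microtubules, fell by 2.20 ± 0.15 on 1 of 2 probe sets. TUBE1 fell by 1.94 ± 0.29 on 1 of 2 probe sets, and MAPRE2, which binds growing microtubule ends, rose by 1.10 ± 0.15 on 1 of 3, a call lost with the mean of its probe sets (0.36).

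Bile acid and steroid signalling genes fell in 16 of 35 cases (45.7%) and rose in 3. HSD17B2, which inactivates estradiol and testosterone, read 8.98 and 8.77 in parental cells and 5.20 and 5.67 in spheres, and fell by 3.44 ± 0.17 (limma, adjusted p = 6.5e-07). NR0B2, a repressor induced by bile acid signalling, fell from 8.28 and 9.41 to 6.65 and 6.99. FGF19, the intestinal hormone that represses bile acid synthesis, fell from 11.20 and 11.17 to 5.23 and 5.63, and CYP24A1, which degrades vitamin D, from 5.11 and 4.78 to 3.34 and 3.29, all below the middle level. The FGF19 receptor and co-receptor genes, chosen after seeing values, differed in direction, FGFR4 falling by 0.46 on 1 of 4 probe sets, a call lost with their mean (-0.20), and KLB rising by 1.14 on 1 of 2. Enteroendocrine and neuronal-type genes were mostly dim, with 4 of 41 higher (9.8%) and 7 lower (17.1%), near the 12.4% and 19.0% of all genes. Among the calls, 6 falls and 2 rises reached 2-fold. The largest falls were those of GABRP, from 8.74 and 9.73 to 3.83 and 3.81, and ADRA2A, from 8.79 and 9.06 to 5.26 and 4.57. Both ended below the middle level. ISL1, a transcription factor of hormone-producing cells, fell from 9.19 and 8.37 to 5.91 and 5.96, and ENO2, a neuronal-type enolase, rose from 7.47 and 8.09 to 10.68 and 10.77. CCK rose by 1.25 ± 0.15 from 4.67 and 4.74, and the defining secretory marker CHGA, chosen after seeing values, differed by -0.02 at 4.8 in both groups. The rises numbered 2 without parental array 1, and the falls 3 without sphere array 1 or without sphere array 2.

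Genes of the secretory route at the endoplasmic reticulum moved in both directions, 6 of 43 higher and 9 lower, with differences under 2-fold. These shares lay near those of all genes (12.4% higher and 19.0% lower), so the list did not stand out from the genes at large. SRP9, SEC11A and ALG8, of the signal recognition particle, the signal peptidase and sugar chain assembly, fell by 0.83, 0.69 and 0.74, while SRP19 and ALG2 rose by 0.76 and 0.69 (limma, adjusted p = 0.0067 and 0.007). The rises numbered 2 without parental array 2 or without sphere array 1, and the falls 15 without parental array 2.

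The labelled cell type was checked against its markers. EPCAM, KRT8 and KRT18, markers of simple epithelium, were bright on all 4 arrays and differed by 0.06, -0.04 and -0.13 (no calls). Of 12 colon epithelium markers 5 rose and 1 fell. CDH17, the liver-intestine cadherin, read 5.08 and 5.09 in parental cells and 9.92 and 9.73 in spheres, KRT20 rose from 11.38 and 11.36 to 12.76 and 13.17, and VIL1 fell by 0.77 on 2 of 4 probe sets. The summed linear intensity of these markers was 45635 and 46548 on the parental arrays and 51155 and 55482 on the sphere arrays. All 7 markers of fibroblasts, 3 of neurons and glia and 1 of red cells gave no call. PECAM1 of endothelium (0.57), CD3E of T cells (0.39) and TTR of liver (0.56) passed narrowly and each lost its call in at least 2 fits with 1 array left out, PECAM1 also with the mean of its probe sets (-0.09). The brightest marker of fibroblasts, COL1A1, read 7.12 on both parental arrays and 7.61 and 7.24 on the sphere arrays, and that of endothelium, PECAM1, 6.01 and 6.13 against 6.74 and 6.53. The summed linear intensity of fibroblast markers was 422 and 411 in parental cells and 527 and 447 in spheres, and that of endothelial markers 194 and 185 against 250 and 218. Leukocyte markers summed to 7626 and 7950 against 7945 and 8385 with LYZ, at 12.85 and 12.90 against 12.90 and 12.99, as the brightest, whereas PTPRC, the pan-leukocyte marker, read 4.60 and 4.78 against 5.13 and 4.81. Hepatocyte markers summed to 144 and 173 against 231 and 209. ALB, the dimmest of the 3, read 3.70 and 3.35 against 3.66 and 3.40. However, 1 of the 3 stood above the middle level in both groups, and the highest group mean of the set was 7.55. Neural markers summed to 137 and 117 against 141 and 123, and the red cell marker to 73 and 71 against 103 and 83. Their part in the results was not tested.

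The SW480 arrays gave a second contrast, the Snail line minus the vector line, run on the same scale and fit. The sphere change differed from the Snail line change in 5446 genes (27.5%), 2099 higher and 3347 lower, and 3954 genes were called both in spheres and in this difference. The largest positive differences were those of PI3 (8.45 ± 0.34), LINC00973 (7.07 ± 0.56), SPRR1B (6.37 ± 0.24) and HSPA6 (6.01 ± 0.19). LINC00973, a long noncoding RNA, read 6.52 and 4.86 on the parental arrays and 8.89 and 9.13 on the sphere arrays, and 8.64 in the vector line and 4.88 in the Snail line (means of 2 arrays), so it moved in opposite directions in the lines. SPRR1B stayed at 4.61 and 4.67 in the SW480 lines. The largest negative differences were those of FGF19 (-8.32 ± 0.21), GABRP (-5.40 ± 0.37), FGF9 (-5.38 ± 0.21) and LOXL1 (-4.79 ± 0.24). FGF9, a growth factor, fell from 9.09 and 9.17 to 5.82 on both sphere arrays and rose from 6.004 to 8.08 between vector and Snail lines, and LOXL1, a crosslinker of elastin, fell from 7.89 and 8.29 to 4.47 and 4.82 and rose from 6.31 to 7.66. GABRP, a GABA receptor subunit, read 4.10 in the vector line and 4.09 in the Snail line. The lines and the media differ between the contrasts, so what part each has in these differences was not tested.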

How the data were processed

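Per the submitters' processing notes, the authors made the deposited log2 values with RMA, which corrects background, quantile-normalises and summarises probes; the sources used here give no version. Whether all 8 arrays were normalised together is not given, and their quartiles differed. The log2 values were used without further scaling, and changes shared by most genes may be hidden. Probe sets naming several genes (1801) or none (11721) were kept out, and each of 19775 genes was read by its brightest probe set over the 8 arrays. limma 3.58.1 in R 4.3.3 fitted 1 mean per group over all 8 arrays, with 4 residual degrees of freedom, tested spheres minus parental cells and its difference from the SW480 contrast, and adjusted p-values over all genes (Benjamini-Hochberg, threshold 0.05). An exact test on 2 against 2 arrays cannot go below p = 0.333, so limma pools the spread across genes. The fit was tested on simulated data in which each gene had the same spread in all 4 groups. That test therefore does not cover the wider spread of the HT29 parental pair. The genes the text names are drawn from the 12 largest rises and falls measured on both sides and up to 5 called members of each list by size. They are also drawn from the largest without a floor, the brightest 2-fold changes and cell type markers. Exceptions are stated, and not every gene of these sets is named. The comparison, lists and rule were chosen with earlier results of these data known. Promoters are from RefSeq on GRCh38.p14. Number of arrays limits precision.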

Additional observations from a re-analysis of the deposited data

Results flagged for a closer look

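Probe sets outside the gene comparison also differed between spheres and parental cells. The 4 probe sets for BioC, a bacterial transcript added to samples as a hybridisation control, were higher on the sphere arrays by 1.57 to 1.72 on the log2 scale, with group means of 8.35 to 8.83 in parental cells and 9.92 to 10.52 in spheres. Of the other controls of that kind, BioB probe sets differed by 0.14 to 0.43, 1 of them past the threshold (limma, adjusted p = 0.04), and BioD and Cre probe sets by 0.076 to 0.20 with no calls. Of 1801 probe sets naming several genes, 213 were higher and 274 lower in spheres (27.0% called by limma, adjusted over all probe sets). Of 11721 probe sets without a gene name, 710 were higher and 655 lower (11.6%).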

How the results depend on the processing

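With 2 arrays a group, results rest on few arrays. Rises numbered 1593 to 2309 and falls 2658 to 3576 when 1 HT29 array was left out, against 2448 and 3752; for the difference from the SW480 contrast they numbered 1494 to 2260 and 2577 to 3525, against 2099 and 3347. Median centring gave 3968 rises, and a 2-fold minimum gave 624 rises and 1400 falls. The other alternatives (quantile normalisation, array weights, an intensity trend, the 4 HT29 arrays alone, the mean of probe sets, the dimmest 40% left out) kept the spheres-minus-parental counts within 1.5 times; for the difference from the SW480 contrast, of these alternatives only quantile normalisation was run (2403 and 3003). Replicate numbers do not pair the arrays by label, and the deviations of same-numbered arrays correlated at 0.032; with the number as a block 2357 genes rose and 3673 fell, and for the difference 1987 and 3278. Of 266 genes named by rule, the mean of a gene's probe sets changed the sign of NDUFA10 (0.0802) and PECAM1 (-0.0948), and lost 8 other calls. Genes chosen after seeing values are not in this count. The cause was not tested beyond the disagreeing probe sets. Without sphere array 1, 11 named genes lost their call and 31 of 82 list counts moved by over 1.5 times. Dim genes are limited by background, which was not measured here.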

Other observations

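Large protein families moved in both directions, near the shares of all genes. Of 466 genes named ZNF, mostly DNA-binding zinc finger proteins, 80 rose (17.2%) and 84 fell (18.0%), beside 12.4% and 19.0% of all genes. The rises numbered 47 without sphere array 2 and the falls 52 without sphere array 1. ZNF711 read 8.01 and 7.94 in parental cells and 5.62 and 5.45 in spheres, and fell on 2 of 2 probe sets by 2.44 ± 0.15 (limma, adjusted p = 2e-06). ZNF792 and ZNF367 fell by 2.24 ± 0.20 and 1.91 ± 0.25. ZNF496 fell on 4 of 5 probe sets while the other rose by 0.44.

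Tripartite motif proteins, many of them ubiquitin ligases, rose in 7 of 56 cases and fell in 13. TRIM31, an intestinal member, fell from 9.65 and 9.54 to 7.01 and 6.82 on 3 of 3 probe sets, by 2.68 ± 0.20 (limma, adjusted p = 6.3e-06). TRIM36 rose from 3.70 and 3.60 to 6.43 and 6.82, on 1 of 4 probe sets and from a level that may be background. TRIM16 rose by 1.29 ± 0.16. The rises numbered 4 without parental array 1 and 3 without either sphere array, and the falls 8 without either sphere array.

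Tetraspanins, which organise membrane proteins into patches, rose in 5 of 28 cases and fell in 5. TSPAN12 fell from 8.19 and 9.16 to 5.64 and 5.83 on 3 of 3 probe sets, and TSPAN8, abundant in intestinal tumour lines, from 12.69 and 12.98 to 11.92 and 11.79. CD81 and TSPAN13 rose by 1.02 ± 0.15 and 0.92 ± 0.13. Without sphere array 2 the rises numbered 3. Of 213 genes named TMEM 37 rose and 31 fell. TMEM45A rose from 3.91 and 3.63 to 7.95 and 7.60, and TMEM106C fell from 10.35 and 10.07 to 8.55 and 8.65 on 1 of 2 probe sets. The TMEM rises numbered 21 and the falls 20 without sphere array 1.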
